A study of Mus musculus with 12 samples.

Results

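The comparison described here sets J774A.1 cells given lipopolysaccharide and microparticles together (LPS+MP, 3 libraries) against mock-treated J774A.1 cells (control, 3 libraries). These are 6 of the 12 RNA sequencing libraries of the series. The genes were all those with a value of at least 1 in at least 3 of the 12 libraries, which kept 11745 of the 11762 genes in the deposited table. The other 6 libraries, LPS alone (3) and microparticles alone (MP, 3), are used below only to place the response to both agents beside that to each one. All 12 libraries came from the same macrophage-like line of BALB/c mouse origin and from polyadenylated RNA, and the series text calls the 3 libraries of each group biological replicates. J774A.1 cells are an established, dividing tumour line, so the control state is that of a proliferating culture. What the microparticles were made of, how large they were, how much of either agent was given and for how long is not stated in the sources used here. The 6 libraries therefore show the response to 1 joint treatment at 1 unstated time.

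LPS, a lipid that coats Gram-negative bacteria, is handed by CD14 to the receptor complex of Toll-like receptor 4 and MD-2 on macrophages. The receptor signals through the adaptor MyD88 to NF-kB and the MAP kinases, which switch on cytokine genes, and through the adaptor TRIF to IRF3, interferon beta and then the interferon-stimulated genes. Macrophages also take up particles by phagocytosis, and particles that strain the lysosome or carry reactive material are known to engage oxidative stress and amino acid stress programmes. Activated macrophage lines commonly slow or stop dividing.

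Values are given in CPM, reads of each gene set relative to the library's total. A log2 fold change is the difference of group means of log2(CPM + 1), LPS+MP minus control unless another pair is named, and is given ± its SE. Adding 1 understates the change of genes near 0 CPM. Genes are called, and described as having risen or fallen, where limma gave a Benjamini-Hochberg adjusted p under 0.05 over all 11745 genes and a change of over 2-fold. Group means are given ± SD (n = 3 libraries per group).

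The 6 libraries separated by treatment, with 96.4% of their variance on the first principal component. Within groups, the median SD over genes was 0.086 on the log2 scale in LPS+MP and 0.085 in control. All 12 macrophage markers, among them Csf1r, Cd68, Spi1 and Lyz2, were present in all 6 libraries, the lowest value being 32.2 CPM for Emr1 (F4/80) in a control library. Of the marker lists of other cell types, 0 of 8 B cell, 0 of 6 mast cell and basophil and 0 of 7 epithelial markers had values analysed here. The 2 of 10 T cell markers with values, Cd28 and Lck, summed to between 15.2 and 18.5 CPM in LPS+MP and between 67.2 and 68.7 CPM in control, and the genes of the CD3 complex were not among them. Of these 2, Lck rose and Cd28 fell. The other lists had 1 to 3 members each with values, of which Pdgfra and Itga2b rose and Vwf fell. The mitochondrial genome contributed 4.14% ± 0.378 of all CPM in LPS+MP and 5.59% ± 0.325 in control. Among the libraries used only for placement, LPS replicate 2 stood apart. In it, 339 genes differed by over 1 (log2) from the average of its group mates. Counts of genes and of list members that use the LPS libraries are therefore given with and without LPS replicate 2.

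Against control, 1001 genes (8.52% of those tested) were higher in LPS+MP and 1447 (12.3%) were lower. In such bulk samples, fewer cells of a kind, for example fewer cells in cycle, and less RNA per cell cannot be told apart. In 2447 of these 2448 genes the 3 LPS+MP libraries did not overlap the 3 control libraries, beside 9121 of all 11745 genes (77.7%). The changes were large, with 69 genes up and 87 down by over 16-fold. The genes that rose held a summed 190496 CPM in LPS+MP and 46932 CPM in control, and those that fell held 41172 CPM in LPS+MP and 135908 CPM in control. Counts of members of the gene lists below that rose or fell against control are to be read beside 8.52% and 12.3% of all genes. The median log2 fold change of all genes was -0.10, the value beside which the medians of gene lists below are to be read. Quantile normalization raised that median by 0.11 and median-ratio scaling by 0.10, which made the split of called genes more even, with 1142 higher and 1220 lower under quantile normalization.

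**Figure D1:**
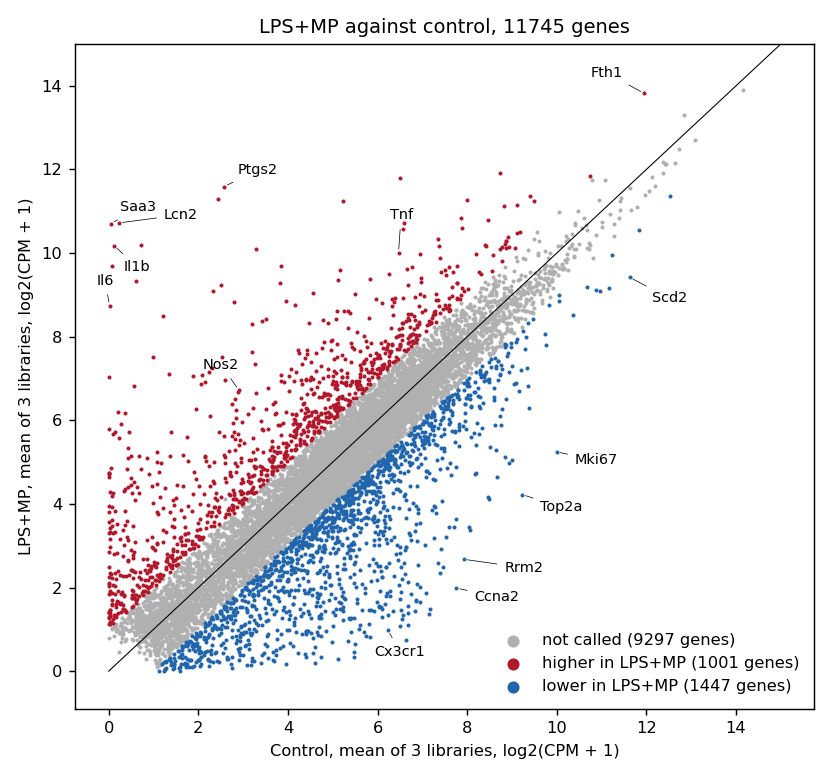
Mean of the 3 LPS+MP libraries (vertical axis) against the mean of the 3 control libraries (horizontal axis), both as log2(CPM + 1), with 1 point for each of 11745 genes and a line where the groups are equal. The 1001 genes called higher in LPS+MP reach far above the line at control values near 0, as for Saa3, Lcn2 and Il1b, and the 1447 called lower include genes well expressed in control, such as Mki67 and Top2a.

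Genes with very large rises included those of secreted inflammatory mediators and antimicrobial proteins, many of them almost silent in control. Saa3, the gene of an acute-phase serum amyloid protein (chromosome 7, 46711998 to 46715676 in the table's coordinates), had 1579, 1789.9 and 1608 CPM in LPS+MP, against 0.0186, 0.000421 and 0.0828 CPM in control. Il1b, the gene of the fever-inducing cytokine interleukin-1 beta, had 1178, 1175 and 1118 CPM in LPS+MP, against 0.102, 0.00106 and 0.163 CPM in control. Lcn2, whose product withholds iron from bacteria by binding their siderophores, had 1778, 1583 and 1695 CPM in LPS+MP, against 0.206, 0.131 and 0.174 CPM in control. In each of these genes no control library reached 1 CPM and no LPS+MP library was under 1000, so the size of the fold change rests on the added 1 (10.65 ± 0.12, 10.06 ± 0.10 and 10.49 ± 0.11 on the log2 scale). Ptgs2, the inducible cyclooxygenase of prostaglandin synthesis, was measurable in both groups, with 3434, 2893 and 2925 CPM in LPS+MP against 4.29, 5.14 and 5.49 CPM in control. This is a ratio of means of 620.2 and a log2 fold change of 9.01 ± 0.12 (limma, adjusted p = 2.26e-17). Irg1, which encodes the enzyme that makes the antibacterial metabolite itaconate, averaged 2501 ± 66.2 CPM in LPS+MP and 4.43 ± 1.18 CPM in control (8.87 ± 0.12, adjusted p = 2.26e-17).

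Sensing genes were split. Of 23 genes of the LPS receptor and Toll-like receptor pathway, 6 rose, 6 fell and 11 were not called (median 0.50). The 6 that rose were Tlr2, Tlr1, Cd14, Ticam2, Irak2 and Irak3. Tlr2, the receptor for bacterial lipoproteins, averaged 603 ± 46.4 CPM in LPS+MP and 101 ± 8.74 CPM in control. Its partner Tlr1 rose by 1.86 ± 0.10, the LPS co-receptor Cd14 by 1.49 ± 0.14, the TRIF bridging adaptor Ticam2 by 1.82 ± 0.10, the signalling kinase Irak2 by 1.57 ± 0.08 and Irak3, an inhibitor of this signalling, by 2.55 ± 0.08. Tlr4 itself fell, to 28.7, 28.7 and 28.0 CPM in LPS+MP, against 72.3, 73.1 and 75.6 CPM in control (-1.34 ± 0.11, adjusted p = 1.82e-08). The 3 LPS+MP libraries lay within 1 CPM of each other and all under the control libraries. Tlr13, the mouse receptor for bacterial ribosomal RNA, had 38.8, 39.0 and 45.8 CPM in LPS+MP, against 274, 293 and 316 CPM in control (-2.81 ± 0.12). Other members that fell, named after their values were seen, were the single-stranded RNA receptor genes Tlr7 (-1.74 ± 0.10) and Tlr8 (-2.55 ± 0.18), the Toll-like receptor homologue Cd180 (-1.07 ± 0.11) and the inhibitory receptor gene Sigirr (-1.44 ± 0.14).

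Downstream of the receptors, 14 of 24 genes of NF-kB subunits and feedback inhibitors rose and 0 fell (median 1.42). Nfkbia, the gene of the inhibitor that holds NF-kB in the cytoplasm and a textbook target of it, had 448, 458 and 447 CPM in LPS+MP, against 76.5, 80.2 and 86.1 CPM in control (2.46 ± 0.10). Tnfaip3, which encodes the ubiquitin-editing brake A20, had 131, 134 and 138 CPM in LPS+MP, against 13.6, 12.4 and 13.9 CPM in control (3.24 ± 0.09). Both genes were higher in every LPS+MP library than in any control library, by a wide margin against spreads of a few CPM. Traf1, a signalling adaptor of the tumour necrosis factor receptors, rose by 4.95 ± 0.11, the nuclear inhibitor family member Nfkbiz by 3.85 ± 0.10, the survival gene Birc3 by 1.71 ± 0.07 and the subunit gene Nfkb1 by 1.30 ± 0.06.

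Cytokine genes rose as a group, 15 of 19 up and 1 down (median 3.48). Tnf, the gene of tumour necrosis factor, had 1096, 974 and 1014 CPM in LPS+MP, against 90.9, 82.1 and 89.4 CPM in control (3.54 ± 0.09, adjusted p = 1.65e-14). Il6 had 421, 442 and 421 CPM in LPS+MP, against 0.0205, 0.000171 and 0.0194 CPM in control. Csf3, which encodes the granulocyte growth factor G-CSF, had 871, 775 and 819.7 CPM in LPS+MP, and in control it was listed at 0 in 1 library and at 0.108 and 0.0265 CPM in the others. Tnf was thus transcribed in mock-treated cells and raised 11.7-fold by ratio of means, whereas Il6 and Csf3 were at the floor of the data in control. Il1a averaged 1173 ± 125 CPM in LPS+MP and 0.648 ± 0.188 CPM in control, and Il1rn, the gene of the natural antagonist of interleukin-1, averaged 458 ± 18.7 CPM in LPS+MP and 14.5 ± 0.839 CPM in control. Il10, the gene of the anti-inflammatory cytokine, had only 5.70, 8.20 and 8.05 CPM in LPS+MP, against 1.40, 0.839 and 1.08 CPM in control (1.98 ± 0.17). The 1 member that fell, named after its value was seen, was Il15, a growth factor for natural killer and memory T cells (4.85 CPM in LPS+MP and 13.7 CPM in control, -1.34 ± 0.13).

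Among 17 chemokine genes, 10 rose and 2 fell (median 2.71). The neutrophil attractant Cxcl2 had 2789.5, 2201 and 2267 CPM in LPS+MP, against 33.7, 37.0 and 38.7 CPM in control (6.01 ± 0.11). Ccl3, an attractant of monocytes and T cells, had 3810.4, 3145 and 3702 CPM in LPS+MP, against 90.6, 86.5 and 92.2 CPM in control (5.29 ± 0.12). Its near relative Ccl4 rose by 3.25 ± 0.08, Ccl7 by 3.60 ± 0.12 and Ccl5 by 8.70 ± 0.17. The interferon-induced T cell attractant Cxcl10 averaged 33.4 ± 4.39 CPM in LPS+MP and 0.347 ± 0.228 CPM in control. The 2 that fell were low in both groups and are named after their values were seen. Cxcl14 averaged 0.832 CPM in LPS+MP and 3.73 CPM in control, and Ccl24 was listed at essentially 0 in LPS+MP and averaged 2.02 CPM in control. With a minimum of 5 CPM for a gene to be tested, 0 chemokine genes fell.

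Receptors for these ligands moved in both directions, 8 of 32 up (25%, beside 8.52% of all genes) and 7 down (21.9%, beside 12.3%), with a median of 0.29. Ccrl2, a chemokine receptor-like gene, rose by 4.92 ± 0.12, the costimulatory receptor gene Cd40 by 2.97 ± 0.09 and the tumour necrosis factor receptor gene Tnfrsf1b by 2.99 ± 0.09. Il4ra rose by 2.15 ± 0.08 and Csf2rb, the shared signalling chain of the GM-CSF and interleukin-3 receptors, by 2.06 ± 0.08. Cx3cr1, the fractalkine receptor of resident macrophages and microglia, fell to about 1 CPM. It had 0.881, 0.930 and 1.08 CPM in LPS+MP, against 71.0, 74.9 and 76.6 CPM in control, a ratio of means of 76.9 in favour of control (-5.26 ± 0.11, adjusted p = 3.06e-15).

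The interferon programme rose almost without exception. Of 39 genes of the type I interferon response, 38 rose and 0 fell (median 3.55), and the 1 uncalled member, Ifi47, was at 0.96 on the log2 scale (adjusted p = 5.96e-05). Rsad2, the gene of the antiviral enzyme viperin (chromosome 12, 26442753 to 26456452), had 417, 359 and 301 CPM in LPS+MP, against 0.660, 1.74 and 1.54 CPM in control (7.30 ± 0.20). Irf7, the transcription factor that amplifies interferon production, had 667, 618 and 528 CPM in LPS+MP, against 4.82, 4.51 and 4.84 CPM in control (6.72 ± 0.12). Oasl1, of the oligoadenylate synthetase family, had 539, 553 and 530.2 CPM in LPS+MP, against 4.21, 3.47 and 4.42 CPM in control (6.75 ± 0.10). All 3 genes stood over 100-fold higher by ratio of means. Isg15, a ubiquitin-like protein attached to other proteins in infected cells, averaged 182 ± 19.9 CPM in LPS+MP and 0.983 ± 0.223 CPM in control. Oasl2 rose by 4.91 ± 0.10, Oas3 by 3.07 ± 0.08 and the guanylate-binding protein gene Gbp3 by 4.996 ± 0.14. The oligoadenylate synthetase and guanylate-binding protein families hold near-identical copies, and how the authors' counting divided reads among them is not given in the sources used here. The interferon beta gene Ifnb1 was not analysed here.

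To show the promoters behind these groups, 200-base windows ending at the annotated start were taken from RefSeq (GRCm38.p6) and searched on both strands. The interferon and NF-kB windows printed here are those that held the letters searched, among the 3 members of each list with the largest changes that had an entry. Windows beyond that of the most changed member were added after the values were seen. Capitals mark GAAANNGAA, the core of the interferon-stimulated response element, in Rsad2 (chr12:26456453-26456652, minus strand), where it lies as its reverse complement, 119 bases before the start. In Tnfaip3 (chr10:19015411-19015610, minus strand) and Nfkbia (chr12:55492648-55492847, minus strand) they mark GGANNTTCC, a kappa B letter pattern, 24 bases before the start of Tnfaip3 and 178 and 29 bases before that of Nfkbia.
Rsad2: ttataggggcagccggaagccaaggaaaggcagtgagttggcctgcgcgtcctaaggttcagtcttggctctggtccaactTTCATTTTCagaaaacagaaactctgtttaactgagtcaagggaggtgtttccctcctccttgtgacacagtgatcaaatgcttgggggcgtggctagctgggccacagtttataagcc
Tnfaip3: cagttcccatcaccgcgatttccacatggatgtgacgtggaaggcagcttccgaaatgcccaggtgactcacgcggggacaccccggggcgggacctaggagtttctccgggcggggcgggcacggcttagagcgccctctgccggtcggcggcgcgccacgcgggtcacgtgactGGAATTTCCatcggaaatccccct
Nfkbia: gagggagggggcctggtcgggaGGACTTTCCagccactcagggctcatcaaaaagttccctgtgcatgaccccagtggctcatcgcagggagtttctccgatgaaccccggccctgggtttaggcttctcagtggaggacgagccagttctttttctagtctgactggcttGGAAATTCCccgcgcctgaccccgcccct
GAAANNGAA was present in 15 of the 30 interferon members with a promoter entry (50%) and in 5.6% of all 32851 promoters of the same length. GGANNTTCC was present in 4 of 20 NF-kB members (20%) and in 3.0% of all promoters. The windows of Oasl1, Irf7 and Traf1, the other members searched for printing, did not hold the letters. These are descriptions of sequence only.

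Effector genes of the classically activated macrophage rose in 18 of 23 cases and fell in 0 (median 3.80). Nos2, which encodes the inducible nitric oxide synthase, had 124, 107 and 82.6 CPM in LPS+MP, against 6.15, 7.27 and 6.02 CPM in control (3.80 ± 0.23, adjusted p = 5.57e-10). Sod2, the mitochondrial superoxide dismutase gene, had 1592, 1516 and 1497 CPM in LPS+MP, against 93.3, 94.5 and 92.1 CPM in control (4.03 ± 0.07). Marco, a scavenger receptor that binds bacteria and inert particles, had 980.0, 1076 and 1204 CPM in LPS+MP, against 9.55, 7.57 and 9.21 CPM in control (6.80 ± 0.11). In all 3 the lowest LPS+MP library was over 10-fold above the highest control library. Arg1, the arginine-consuming gene of alternatively activated macrophages, was low throughout, at 0.0946, 1.28 and 0.177 CPM in LPS+MP and 2.32, 2.14 and 2.18 CPM in control (-1.17 ± 0.26). Its call was lost without LPS+MP replicate 1, the change then being -0.97.

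**Figure D2:**
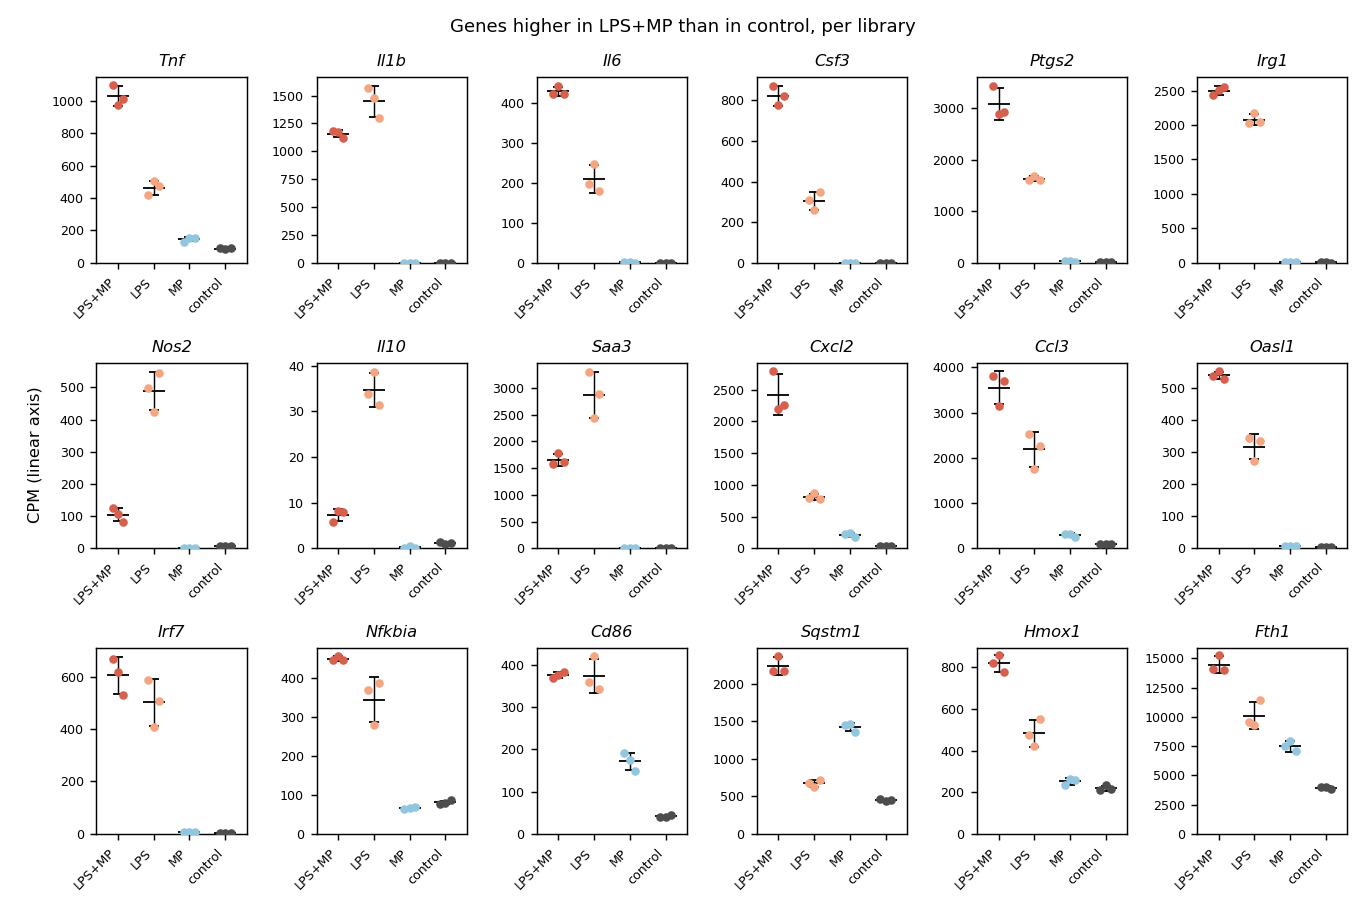
CPM of 18 genes higher in LPS+MP than in control, on linear axes that start at 0, with 1 point per library and the mean ± SD of 3 libraries for LPS+MP, LPS, MP and control from left to right. The LPS+MP points lie above all control points in every panel, while their place beside LPS differs by gene: above LPS for Tnf, Csf3 and Cxcl2, below LPS for Nos2, Il10 and Saa3.

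Genes of antigen presentation and costimulation rose in 17 of 21 cases and fell in 0 (median 1.36). Cd274, the gene of the T cell inhibitory ligand PD-L1, had 622, 627 and 627 CPM in LPS+MP, against 13.5, 12.8 and 13.2 CPM in control (5.47 ± 0.11). Cd86, a ligand that costimulates T cells, had 368, 375 and 382 CPM in LPS+MP, against 39.1, 40.6 and 43.4 CPM in control (3.16 ± 0.09), and Cd80 rose by 2.77 ± 0.16. For both Cd274 and Cd86 the groups were far apart and the LPS+MP libraries nearly equal. In the class I pathway, the peptide transporter gene Tap1 rose by 2.86 ± 0.11, its regulator Nlrc5 by 2.59 ± 0.10 and H2-D1, which shares sequence with other class I genes, to 2276 ± 249 CPM in LPS+MP, against 554 ± 46.0 CPM in control.

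Inflammasome and cell death genes were divided, with 6 of 17 up (35.3%, beside 8.52% of all genes) and 4 down (23.5%, beside 12.3%), the median being 0.67. Nlrp3, the sensor that assembles the inflammasome after lysosomal or ionic disturbance, had 428, 427 and 426 CPM in LPS+MP, against 122, 121 and 121 CPM in control (1.81 ± 0.06, adjusted p = 2.38e-13). Casp4 (also called caspase-11), the mouse sensor of cytosolic LPS, rose by 2.44 ± 0.10 and Mlkl, the pore-forming protein gene of necroptosis, by 1.64 ± 0.08. Naip2 (1.24 ± 0.10) and Nlrc4 (1.15 ± 0.10), which together sense bacterial secretion systems, rose as well. Those that fell were Txnip, a thioredoxin-binding protein gene (-1.34 ± 0.10), and, named after their values were seen, the adaptor gene Pycard (-1.15 ± 0.13), Nlrp1b (-1.45 ± 0.16) and Dfna5 (-1.54 ± 0.15).

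**Figure D3:**
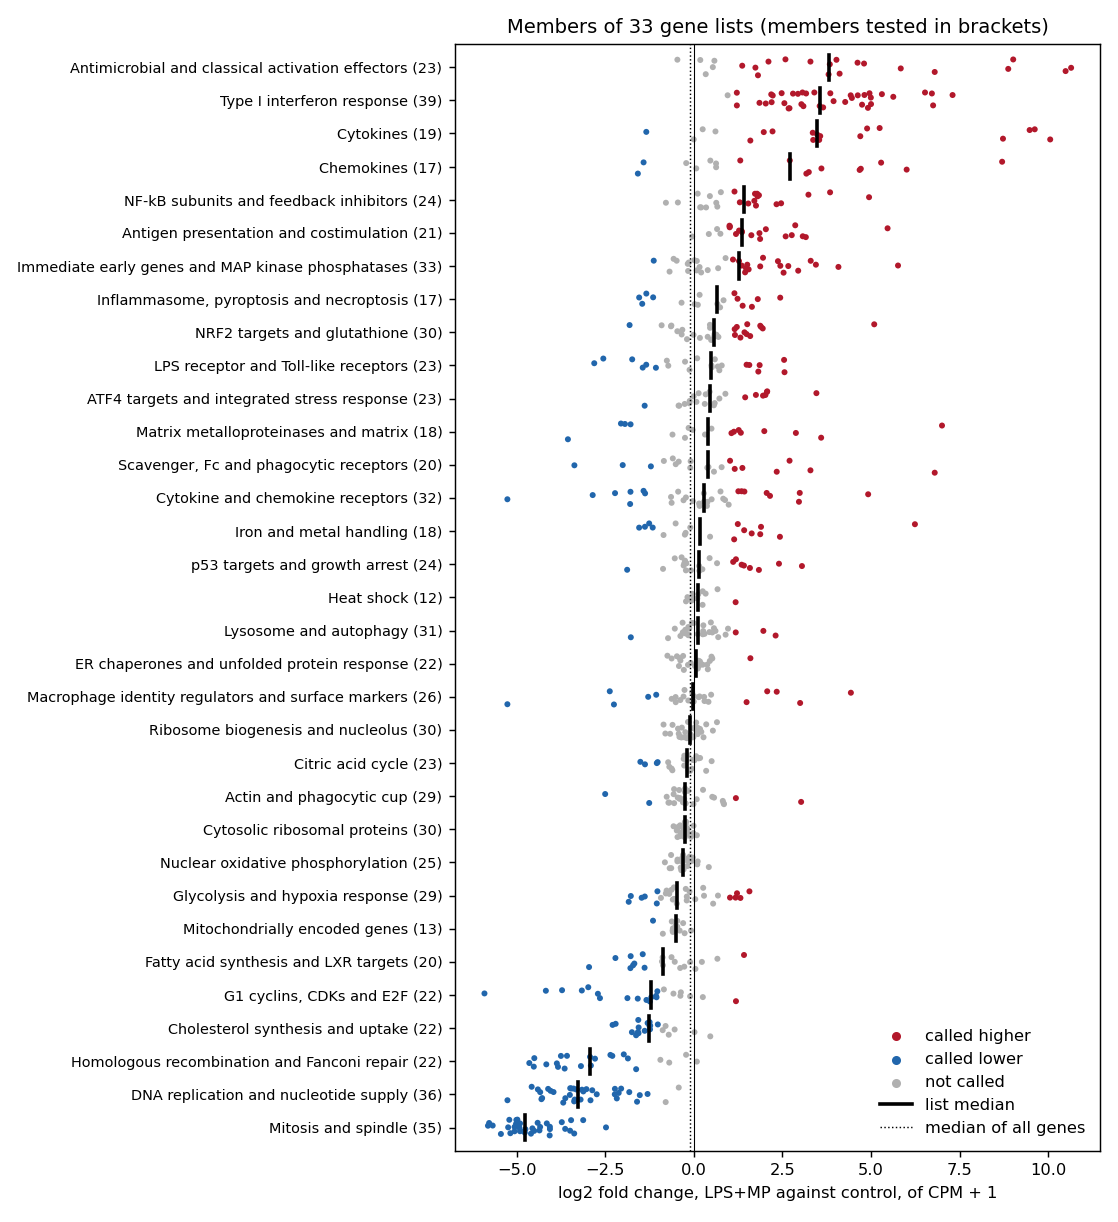
Log2 fold change of LPS+MP against control (horizontal axis) for each tested member of 33 gene lists, ordered by list median, with the number tested in brackets, list medians as bars and the median of all genes (-0.10) as a dotted line. Effectors, interferon genes and cytokines lie to the right with medians of 3.80, 3.55 and 3.48, and DNA replication and mitosis genes to the left with medians of -3.26 and -4.75.

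The cells kept macrophage transcripts while individual markers shifted. Of 26 macrophage identity regulators and surface markers, 5 rose (19.2%, beside 8.52% of all genes) and 5 fell (19.2%, beside 12.3%), with a median of -0.02. Emr1, which encodes F4/80, had 763, 768 and 782 CPM in LPS+MP, against 32.2, 35.0 and 37.2 CPM in control (4.43 ± 0.07). Siglec1, a sialic acid receptor and interferon-responsive gene, rose by 3.001 ± 0.12 and the high-affinity IgG receptor gene Fcgr1 by 2.34 ± 0.09. Lyz2, the lysozyme gene, had 1087, 913 and 947 CPM in LPS+MP, against 2414, 2244 and 2521 CPM in control (-1.29 ± 0.09). Trem2, a lipid-sensing receptor of phagocytes, had 104, 74.5 and 90.5 CPM in LPS+MP, against 483, 419 and 489 CPM in control (-2.37 ± 0.12). Csf1r, the growth factor receptor that macrophages depend on, was not called, at 819.7 ± 58.2 CPM in LPS+MP and 1003 ± 95.0 CPM in control (-0.29 ± 0.08).

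Of 20 scavenger, Fc and phagocytic receptor genes, 7 rose (35%, beside 8.52% of all genes), with a median of 0.40. The 3 that fell (15%, beside 12.3%) were a share near that of all genes. Beside Marco and Fcgr1, the C-type lectin genes Clec4e (Mincle, a receptor for mycobacterial glycolipid) and Clec4n (dectin-2, a receptor for fungal mannans) rose by 3.29 ± 0.10 and 2.70 ± 0.11. Fcgr2b, the inhibitory IgG receptor gene, rose by 1.37 ± 0.08. Mrc1, the mannose receptor gene, had 0.921, 0.247 and 0.654 CPM in LPS+MP, against 11.985, 17.3 and 17.4 CPM in control (-3.37 ± 0.20). Lrp1, a large endocytic receptor gene, had 561, 549 and 609 CPM in LPS+MP, against 2015, 2377 and 2544 CPM in control (-2.00 ± 0.13). The third that fell, named after its value was seen, was Scarb1, a receptor for high-density lipoprotein (-1.21 ± 0.10).

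Of 31 lysosome and autophagy genes, 3 rose (9.68%, beside 8.52% of all genes) and 1 fell (3.23%, beside 12.3%), with a median of 0.11. Sqstm1, which encodes p62, an autophagy receptor, had 2172, 2379 and 2168 CPM in LPS+MP, against 462, 440.4 and 450.0 CPM in control (2.31 ± 0.07). The protease gene Ctsl rose by 1.96 ± 0.08, and Tfeb, a transcription factor of lysosomal genes, fell by 1.78. Median-ratio scaling called 5 members of this list higher. Of 29 actin and phagocytic cup genes, 2 rose, Marcksl1 (3.03 ± 0.12) and Ezr (1.19 ± 0.06), and 2 fell, Coro1c (-1.26 ± 0.06) and the actin-severing gene Gsn (-2.50 ± 0.11), with a median of -0.25. Each share was 6.9%, beside the 8.52% of all genes that rose and the 12.3% that fell.

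Immediate early genes, the first transcription factors and phosphatases induced after a stimulus, rose in 18 of 33 cases and fell in 1 (median 1.28). Nr4a1, an orphan nuclear receptor gene, had 137, 136 and 136 CPM in LPS+MP, against 1.18, 1.77 and 1.67 CPM in control (5.76 ± 0.21). Egr1 had 175, 148 and 158 CPM in LPS+MP, against 7.55, 8.24 and 9.93 CPM in control (4.08 ± 0.20). Both were well apart from control at the time of sampling. Ier3 rose by 3.45 ± 0.11, the mRNA-destabilising gene Zfp36 by 2.95 ± 0.10, Maff by 2.38 ± 0.13 and Atf3 by 1.95 ± 0.09. The 1 that fell, named after its value was seen, was Myc (13.4 CPM in LPS+MP and 30.3 CPM in control, -1.13 ± 0.16). After quantile normalization 0 members of the list fell.

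Oxidative and amino acid stress genes rose in part. Of 30 NRF2 targets and glutathione genes, 12 rose and 1 fell (median 0.58). Slc7a11, the cystine importer that feeds glutathione synthesis, had 324, 277 and 339 CPM in LPS+MP, against 8.71, 7.33 and 8.55 CPM in control (5.09 ± 0.09). Hmox1, which encodes a heme-degrading enzyme, had 821, 858 and 778 CPM in LPS+MP, against 209, 232 and 216 CPM in control (1.90 ± 0.09). Each of these genes was higher in all 3 LPS+MP libraries than in any control library. Srxn1 (sulfiredoxin) rose by 1.59 ± 0.07, Gclm, of glutathione synthesis, by 1.51 ± 0.06 and the biliverdin reductase gene Blvrb by 1.49 ± 0.08. The 1 that fell, named after its value was seen, was Osgin1 (-1.81 ± 0.14). The antioxidant response pattern TGACNNNGC was present in the promoter windows of 5 of 25 NRF2 members with an entry (20%), not among them Slc7a11, and in 8.6% of all promoters. Of 23 ATF4 targets, 7 rose (30.4%, beside 8.52% of all genes) and 1 fell (4.35%, beside 12.3%), with a median of 0.45. Cth, the cysteine-forming enzyme gene, had 207, 198 and 208 CPM in LPS+MP, against 19.6, 17.7 and 15.8 CPM in control (3.46 ± 0.07). Ddit3 (CHOP) rose by 2.07 ± 0.09, Ppp1r15a, the phosphatase subunit gene that reverses the stress block on translation, by 2.02 ± 0.10 and Nupr1 by 1.45 ± 0.09, while the mitochondrial serine enzyme gene Shmt2 fell by 1.39.

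Protein folding genes are given beside the 8.52% of all genes that rose and the 12.3% that fell. Of 22 ER chaperone and unfolded protein response genes only the sensor kinase gene Ern1 was called (1.60 ± 0.08, median of the list 0.08), and of 12 heat shock genes only Hsph1 (1.18 ± 0.07, median 0.11). Iron genes moved more, with 8 of 18 up and 4 down (median 0.18). Fth1, the ferritin heavy chain that stores iron, had 14068, 15298 and 14044 CPM in LPS+MP, against 3995, 4028 and 3796 CPM in control (1.88 ± 0.11). Cp, the gene of the copper ferroxidase ceruloplasmin, averaged 112 ± 12.6 CPM in LPS+MP and 0.490 ± 0.0977 CPM in control. The mitochondrial iron importer gene Slc25a37 rose by 2.43 ± 0.08 and the endosomal metal transporter gene Slc11a2 by 1.63 ± 0.07. Those that fell, named after their values were seen, were Slc40a1, the iron exporter ferroportin (44.3 CPM in LPS+MP and 131 CPM in control, -1.54 ± 0.11), Steap3 (-1.38 ± 0.11), the metallothionein gene Mt1 (-1.26 ± 0.10) and Slc39a8 (-1.16 ± 0.09).

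Of 24 p53 targets and growth arrest genes, 8 rose (33.3%, beside 8.52% of all genes) and 1 fell (4.17%, beside 12.3%), with a median of 0.16. Gadd45b, a stress gene also induced by NF-kB, rose by 3.05 ± 0.11 and the death receptor gene Fas by 2.40 ± 0.14. Mdm2, the gene of the p53 ubiquitin ligase, averaged 287 ± 4.27 CPM in LPS+MP and 112 ± 3.91 CPM in control (1.35 ± 0.06), and the antiproliferative genes Btg1 and Btg2 rose by 1.58 ± 0.07 and 1.11 ± 0.08. Sesn1 was the 1 that fell (-1.88 ± 0.13, named after its value was seen).

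Cell division genes fell together, with the lowest median of the 33 lists. All 35 mitosis and spindle genes fell, by between 2.48 and 5.81 on the log2 scale (median -4.75). Ccna2, the cyclin of S phase and mitotic entry (chromosome 3, 36564866 to 36572150), had 2.80, 2.74 and 3.34 CPM in LPS+MP, against 222, 221 and 203 CPM in control (-5.77 ± 0.10, adjusted p = 5.32e-16). Kif11, the motor that separates spindle poles, had 1.62, 1.57 and 2.26 CPM in LPS+MP, against 145, 151 and 130.3 CPM in control (-5.67 ± 0.12). Top2a, the DNA untangling enzyme gene, had 17.6, 17.9 and 17.6 CPM in LPS+MP, against 606, 621 and 571 CPM in control (-5.01 ± 0.08). The groups were far apart, with ratios of means, control over LPS+MP, of 72.8 for Ccna2, 78.3 for Kif11 and 33.9 for Top2a. Mki67, the proliferation marker Ki-67, had 34.5, 31.6 and 44.7 CPM in LPS+MP, against 953, 1059 and 1053 CPM in control (-4.77 ± 0.11). Of the mitotic kinases, Plk1 had 1.61, 2.26 and 2.84 CPM in LPS+MP, against 114, 115 and 114 CPM in control, and Aurkb averaged 2.18 ± 0.451 CPM in LPS+MP and 116 ± 7.32 CPM in control.

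**Figure D4:**
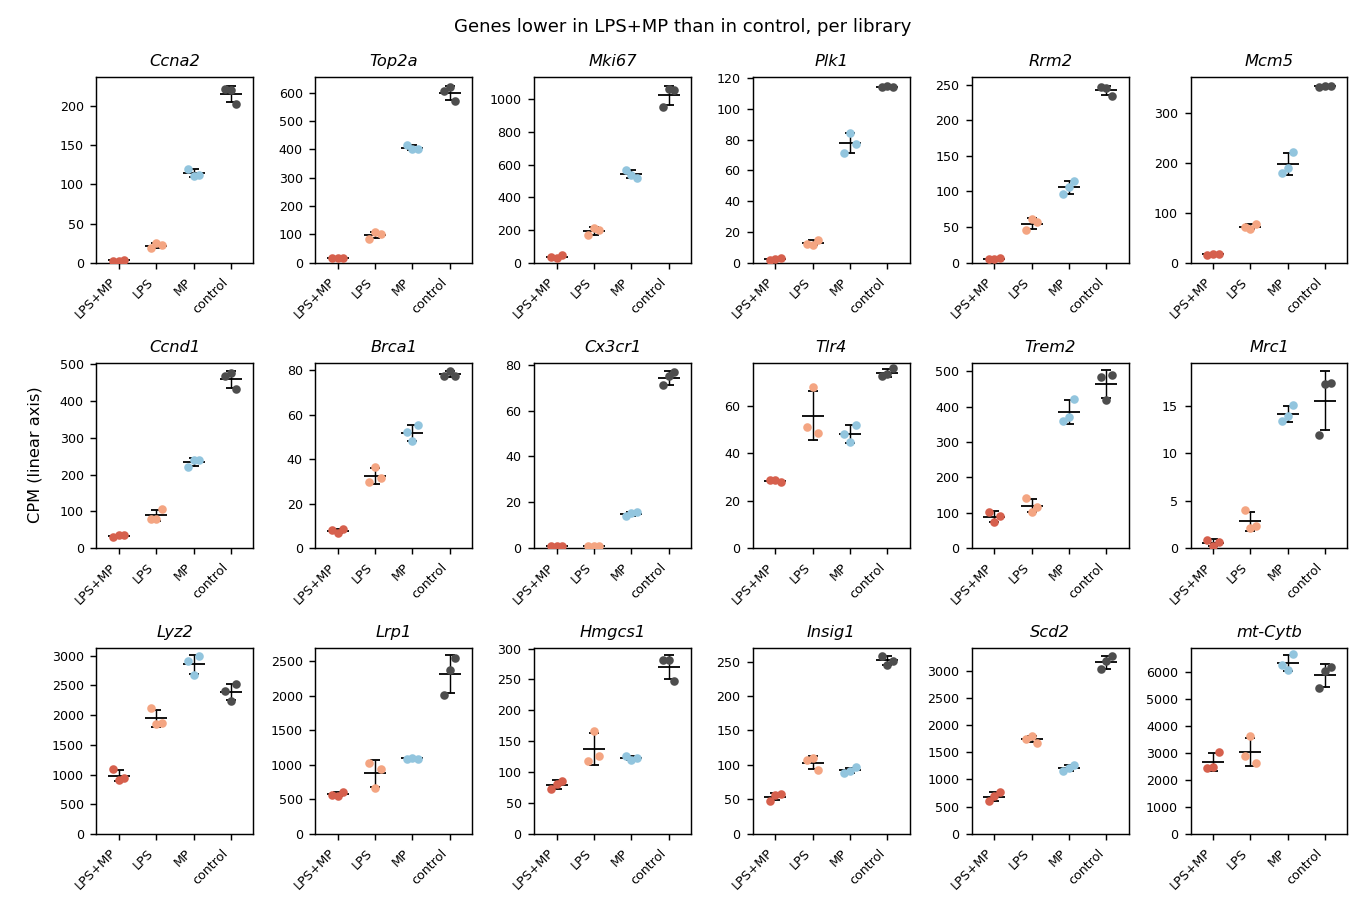
CPM of 18 genes lower in LPS+MP than in control, on linear axes that start at 0, with 1 point per library and the mean ± SD of 3 libraries for LPS+MP, LPS, MP and control from left to right. In every panel all LPS+MP points lie below all control points, and for Ccna2, Top2a, Mki67, Rrm2 and Brca1 they also lie below all LPS points.

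DNA replication genes fell nearly as completely, 34 of 36 (median -3.26), the 2 uncalled being Tyms (-0.42) and Cdt1 (-0.79). Rrm2, a subunit of the enzyme that makes deoxynucleotides, had 4.84, 4.94 and 6.39 CPM in LPS+MP, against 246, 245 and 235 CPM in control (-5.26 ± 0.11). Mcm5, of the replicative helicase, had 15.03, 17.8 and 18.3 CPM in LPS+MP, against 351, 352 and 354 CPM in control (-4.30 ± 0.09). The ligase gene Lig1, which joins Okazaki fragments, averaged 11.495 ± 0.293 CPM in LPS+MP and 215 ± 1.65 CPM in control. Among genes of homologous recombination and the Fanconi pathway, 18 of 22 fell and 0 rose (median -2.92). Brca1 had 7.99, 6.65 and 8.58 CPM in LPS+MP, against 77.3, 79.6 and 77.2 CPM in control (-3.18 ± 0.10), Fancd2 fell by 4.64, and the resection nuclease gene Exo1 fell by 4.51.

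In the G1 phase list, 15 of 22 fell and 1 rose (median -1.22). Ccnd1, the cyclin that answers growth factor signals, had 30.5, 35.7 and 36.0 CPM in LPS+MP, against 467, 476 and 433 CPM in control (-3.72 ± 0.10). The atypical E2F gene E2f8 had the largest fall of all named genes, with 0.474, 0.871 and 0.654 CPM in LPS+MP against 93.8, 104 and 97.9 CPM in control (-5.91 ± 0.12). Cdkn1a, the gene of the cell cycle inhibitor p21, was the 1 that rose and is named after its value was seen (264 CPM in LPS+MP and 115 CPM in control, 1.19 ± 0.13). The histone transcripts captured in this poly(A)-selected RNA did not fall with the replication genes. Histone transcripts without a poly(A) tail were not measured, so histone output in S phase cannot be read from these values. The sum of histone genes was 165 ± 9.06 CPM in LPS+MP and 124 ± 1.49 CPM in control, and Hist1h1c was not called at 86.7, 81.4 and 82.6 CPM in LPS+MP against 40.9, 43.6 and 43.9 CPM in control (0.95 ± 0.15). It passed the 2-fold threshold after quantile normalization (1.01) and median-ratio scaling (1.06).

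The promoters of the mitotic genes were searched in the same way for TTTGAA, the cell cycle homology region, and for CCAAT, the NF-Y box. Cenpf (chr1:189688087-189688286, minus strand) and Kif11 (chr19:37376182-37376381, plus strand) are shown because they had the largest falls of the list among members with an entry. Capitals mark CCAAT at 132 and 71 bases before the start of Cenpf. In Kif11 they mark CCAAT as its reverse complement at 45 bases and TTTGAA as its reverse complement at 19 bases before the start.
Cenpf: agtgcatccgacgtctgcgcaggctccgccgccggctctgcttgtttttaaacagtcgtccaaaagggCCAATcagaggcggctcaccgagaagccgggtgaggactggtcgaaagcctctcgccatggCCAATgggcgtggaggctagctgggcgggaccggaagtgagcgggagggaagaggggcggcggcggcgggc
Kif11: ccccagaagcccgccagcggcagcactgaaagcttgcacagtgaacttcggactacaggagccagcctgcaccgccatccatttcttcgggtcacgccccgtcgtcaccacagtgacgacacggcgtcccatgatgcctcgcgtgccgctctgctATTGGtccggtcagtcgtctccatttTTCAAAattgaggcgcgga
CCAAT was present in 21 of 28 mitotic members with an entry (75.0%) and in 29.3% of all 32851 promoters. TTTGAA was present in 8 of 28 (28.6%) and in 12.5% of all promoters. Neither pattern was found in the window of Nuf2.

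Lipid synthesis genes fell as well. In the cholesterol synthesis and uptake list, 16 of 22 fell and 0 rose (median -1.28). Hmgcs1, an early enzyme of the mevalonate pathway, had 72.4, 80.8 and 86.3 CPM in LPS+MP, against 282, 281 and 247 CPM in control (-1.75 ± 0.11). Insig1, a sterol-responsive gene that retains the SREBP activator in the ER, had 47.7, 56.6 and 57.7 CPM in LPS+MP, against 259, 245 and 251 CPM in control (-2.20 ± 0.08). In both genes the control libraries were over 2-fold above every LPS+MP library. Acat2 fell by 2.29, Lss by 1.63, Stard4 by 1.57 and Fdps by 1.23. Among fatty acid synthesis genes and targets of the sterol receptor LXR, 8 of 20 fell and 1 rose (median -0.87). Scd2, a desaturase gene, had 602, 689 and 760.2 CPM in LPS+MP, against 3031, 3170.0 and 3268 CPM in control (-2.21 ± 0.09). Fasn fell by 1.68, its regulator Srebf1 by 1.44 and the lipoprotein lipase gene Lpl by 2.95. The cholesterol exporter gene Abca1 was not called (503 ± 34.7 CPM in LPS+MP and 316 ± 25.3 CPM in control, 0.67 ± 0.09), and Nr1h3, which encodes LXR alpha, rose by 1.42 ± 0.16 (named after its value was seen).

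The window of Hmgcs1 (chr13:119690151-119690350, plus strand) held the sterol response pattern TCACNCCAC, in capitals, 137 bases before the start.
Hmgcs1: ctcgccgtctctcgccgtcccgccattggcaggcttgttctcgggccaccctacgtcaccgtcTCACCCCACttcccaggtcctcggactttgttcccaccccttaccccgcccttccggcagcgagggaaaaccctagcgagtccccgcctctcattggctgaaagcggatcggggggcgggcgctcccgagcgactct
It was the 1 member of 16 with an entry (6.2%) to hold the letters, which were present in 0.9% of all promoters, and Acat2 and Insig1 did not.

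Energy metabolism was mixed. Of 29 glycolysis and hypoxia genes, 5 rose (17.2%, beside 8.52% of all genes) and 6 fell (20.7%, beside 12.3%), with a median of -0.48. Hk2, the inducible hexokinase gene, had 270.3, 259 and 259 CPM in LPS+MP, against 103, 113 and 98.9 CPM in control (1.32 ± 0.07), and Pfkfb3, which raises glycolytic flux, rose by 1.57 ± 0.11. Pdk1, the gene of a kinase that inhibits pyruvate dehydrogenase, fell by 1.84, Ndrg1 by 1.78 and the oxygen sensor gene Egln1 by 1.38. In the citric acid cycle list 4 of 23 fell (17.4%, beside 12.3% of all genes) and 0 rose (median -0.20), a share near that of all genes. They were the isocitrate dehydrogenase genes Idh1 (-1.38 ± 0.07) and Idh2 (-1.51 ± 0.06), the malate dehydrogenase gene Mdh1 (-1.02 ± 0.07) and the succinate dehydrogenase subunit gene Sdhd (-1.04 ± 0.11). Idh1 and Mdh1 encode cytosolic forms of these enzymes, so the count describes the list and not the mitochondrial cycle alone. The calls of Mdh1 and Sdhd were lost under median-ratio scaling and without LPS+MP replicate 3. Of 25 nuclear genes of oxidative phosphorylation 0 were called (median -0.30), and of 13 mitochondrially encoded genes only mt-Cytb was called, with 2 called without control replicate 2. It had 2454, 2465 and 3052 CPM in LPS+MP, against 5399, 6027 and 6204 CPM in control (-1.15 ± 0.12).

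Ribosomal genes did not pass the size threshold in either direction. Of 30 cytosolic ribosomal protein genes 0 were called (median -0.25), and of 30 ribosome biogenesis genes 0 were called (median -0.10), though 2 of these fell under a limma test against a 1.5-fold change. At an adjusted p under 0.05 with no size threshold, 0 of the 30 ribosomal protein genes were higher (27.7% of all genes were) and 18 were lower (38.6% of all genes were). Rpl4 averaged 1509 ± 14.8 CPM in LPS+MP and 1633 ± 27.1 CPM in control, and Npm1, a nucleolar chaperone gene, averaged 549 ± 12.6 CPM in LPS+MP and 738 ± 32.9 CPM in control.

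Secreted proteases and matrix genes were split, with 8 of 18 up and 4 down (median 0.41). Serpinb2, an inhibitor of plasminogen activators, had 162, 109 and 117 CPM in LPS+MP and was listed at essentially 0 in all 3 control libraries. The matricellular gene Thbs1 rose by 3.59 ± 0.20. Plau, the gene of the urokinase that Serpinb2 acts on, fell by 2.05. Tgfbi had 5.69, 6.59 and 8.20 CPM in LPS+MP, against 86.0, 87.3 and 96.9 CPM in control (-3.55 ± 0.13), the metalloelastase gene Mmp12 fell by 1.78 and the inhibitor gene Timp2 fell by 1.94.

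The same LPS+MP libraries were then set beside each single agent, to see where the joint treatment stood apart from both. Against LPS alone, 74 genes (0.63%) were higher in LPS+MP and 457 (3.89%) lower, or 71 and 450 without LPS replicate 2. Against MP alone, 671 (5.71%) were higher and 926 (7.88%) lower. A gene was counted as apart when it was called in the same direction against control, LPS and MP, which gave 42 genes higher (0.358%) and 288 lower (2.45%), or 36 and 280 without LPS replicate 2. These 3 comparisons share the LPS+MP libraries, so the counts are given side by side.

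Among the lists, genes lying above all other groups were found for cytokines (5 of 19), immediate early genes (6 of 33) and chemokines (1 of 17), beside 0.358% of all genes, with the same 3 counts without LPS replicate 2. The cytokine genes were Csf3, Il6, Lif, Tnf and Osm (oncostatin M, named after its value was seen), and the chemokine gene was Cxcl2. Lif, of the interleukin-6 family, had 68.8, 45.3 and 40.8 CPM in LPS+MP, against 9.33, 3.98 and 8.41 CPM in LPS, 0.866, 1.40 and 0.582 CPM in MP and 0.587, 0.237 and 0.261 CPM in control. Csf3 averaged 822 ± 47.9 CPM in LPS+MP, 306 ± 44.6 CPM in LPS, 0.107 ± 0.0504 CPM in MP and 0.0448 ± 0.0563 CPM in control. Tnf averaged 1028 ± 62.5 CPM in LPS+MP, 464 ± 44.0 CPM in LPS, 146 ± 13.6 CPM in MP and 87.5 ± 4.71 CPM in control. The change of Il6 against LPS (1.05) was near the threshold and lost its call after quantile normalization (0.97), by limma's treat test against 1.5-fold (adjusted p = 0.138) and without LPS replicate 3 (0.95). In Lif, Csf3 and Tnf the joint treatment gave the highest values of the 4 groups with no overlap. Egr1 averaged 161 ± 13.7 CPM in LPS+MP, 26.9 ± 10.1 CPM in LPS, 40.2 ± 5.52 CPM in MP and 8.57 ± 1.22 CPM in control, and Nr4a1 averaged 136 ± 0.656 CPM in LPS+MP, 31.1 ± 10.7 CPM in LPS, 9.79 ± 2.55 CPM in MP and 1.54 ± 0.315 CPM in control. Neither gene had an LPS+MP library within reach of another group. Procr, the protein C receptor gene, averaged 526 ± 28.3 CPM in LPS+MP, 213 ± 24.0 CPM in LPS, 85.8 ± 5.99 CPM in MP and 22.7 ± 1.34 CPM in control. Neat1, a nuclear long non-coding RNA, averaged 3863 ± 44.0 CPM in LPS+MP, 1866 ± 216 CPM in LPS, 1899 ± 159.5 CPM in MP and 427 ± 85.2 CPM in control, and its change against LPS (1.06) fell under the threshold without LPS replicate 2 (0.96), as did its change against MP (1.03) without MP replicate 1 (0.96). The small proline-rich protein gene Sprr2d averaged 54.3 ± 6.20 CPM in LPS+MP and 24.7 ± 10.9 CPM in LPS, and was listed at essentially 0 in every MP and control library, as was Sprr2g, a gene of similar sequence. Their changes against LPS (1.20 and 1.12) fell under the threshold without LPS replicate 2 (0.83 and 0.69) and did not pass limma's treat test against 1.5-fold (adjusted p = 0.194 and 0.531).

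Genes lying below all other groups included 32 of 35 mitosis, 28 of 36 DNA replication and 15 of 22 recombination genes, beside 2.45% of all genes, the counts without LPS replicate 2 being 32, 27 and 16. Ccna2 averaged 2.96 ± 0.333 CPM in LPS+MP, 21.7 ± 3.27 CPM in LPS, 114 ± 5.22 CPM in MP and 216 ± 10.5 CPM in control. Rrm2 averaged 5.39 ± 0.865 CPM in LPS+MP, 54.8 ± 7.86 CPM in LPS, 106 ± 9.31 CPM in MP and 242 ± 6.36 CPM in control. In both genes the 4 groups did not overlap, LPS+MP being the lowest and control the highest. Tgfbi averaged 6.83 ± 1.27 CPM in LPS+MP, 32.4 ± 4.31 CPM in LPS, 60.7 ± 9.43 CPM in MP and 90.1 ± 5.96 CPM in control. Of 39 interferon genes 0, and of 23 effector genes 0, were called higher in LPS+MP than in LPS, beside 0.63% of all genes. Lower than in LPS were 3 effector genes, beside 3.89% of all genes, and the list counts were the same without LPS replicate 2. Those called lower were Nos2 and, named after their values were seen, the formyl peptide receptor genes Fpr1 (-2.00) and Fpr2 (-1.30). At under 2-fold, the effector gene Ptgs2 (0.91, adjusted p = 3.42e-05) and the interferon gene Oasl1 (0.77, adjusted p = 3.3e-05) were higher in LPS+MP than in LPS.

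Several LPS-induced genes were called higher in LPS+MP than in control and yet lower than in LPS alone. Nos2 had 124, 107 and 82.6 CPM in LPS+MP, against 498, 424 and 544 CPM in LPS (-2.23, adjusted p = 2.3e-06). Il10 averaged 7.32 ± 1.40 CPM in LPS+MP and 34.7 ± 3.70 CPM in LPS (-2.11), and Thbs1 averaged 18.2 ± 2.42 CPM in LPS+MP and 122 CPM in LPS (-2.69). In all 3 the LPS+MP libraries lay between LPS and control with no overlap.

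The interaction, the difference of LPS+MP from LPS minus the difference of MP from control, asks whether the joint change equals the sum of the single changes on the log2 scale. It was positive in 120 genes (1.02%) and negative in 432 (3.68%), or 98 and 433 without LPS replicate 2. Negative interactions were found in 20 of 35 mitosis, 13 of 36 replication and 12 of 22 recombination genes, whose falls with both agents were larger than the sum, the counts without LPS replicate 2 being 20, 9 and 10. Top2a is an example (-1.84 ± 0.11, adjusted p = 1.03e-07). They were also found in 8 of 23 effector genes (9 without LPS replicate 2), where the joint change lay below the sum, among them Lcn2 (-1.82), and in Cd86 of the costimulation list (-2.02 ± 0.13). Positive interactions were found in 7 of 29 glycolysis and hypoxia genes, and a negative one in 1, beside 1.02% and 3.68% of all genes. Both counts were the same without LPS replicate 2. Against control, MP alone lowered 8 genes of that list and raised 0, so a positive interaction need not be a larger rise. Lif (2.20 ± 0.37, adjusted p = 0.000566) and Inhba, the activin A subunit gene (1.78 ± 0.32), also had positive interactions, and their rises exceeded the sum. Inhba averaged 51.8 ± 9.53 CPM in LPS+MP and 0.111 ± 0.0722 CPM in control, and its interaction missed the threshold with an added 0.1 in place of 1 (adjusted p = 0.0681). Tnf (0.42), Il6 (0.14), Egr1 (0.50) and Sqstm1 (0.07) had no called interaction.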

How the data were processed

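RNA of 12 J774A.1 cultures in 4 groups of 3 was sequenced after poly(A) selection with a directional kit and 16 PCR cycles, per the labels' protocols. Per the submitters' processing notes, the authors' tools were Trimmomatic 0.36 and FastQC 11.5, the aligner TopHat2 2.1.1, and HTSeq, edgeR and DESeq2. No source used here gives the genome build, the annotation or the strand setting of the counting. Of the 11762 genes of the deposited table, 11655 matched GENCODE M21, all on the same chromosome and 6328 with the same start, so the table's coordinates are given without a build name. The deposited columns are headed RPKM, but each column sums to nearly the same total (998867 to 999273), and they were read as CPM. The sums alone cannot show whether values were divided by gene length, which was taken not to be so. Levels of single genes were not compared with each other. The sums and shares of CPM over several genes, and the names chosen by CPM difference, rest on that reading. The authors' deposited mean column is a log2 of CPM and served only to check this reading. Low values were not whole multiples of 1 read, so depth is unknown and no counting interval is given.

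Genes with at least 1 CPM in at least 3 libraries were kept, which removed 17. Group means of log2(CPM + 1) for all 4 groups were fitted with limma 3.58.1 (R 4.3.3, variance trend), with Benjamini-Hochberg adjustment over 11745 genes, an adjusted p under 0.05 and a change over 2-fold. The steps were tested on simulated data. The members, the 33 gene lists and the 10 lists of markers for other cell types were chosen with earlier results of these data known. Lists are described by counts and medians, with no set test.

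Genes are named if they were among the 15 largest changes or 10 largest CPM differences per direction, the up to 6 smallest adjusted p of a list, the 10 largest changes apart from all other groups, the 10 smallest interaction p, or the 8 per direction called oppositely for MP and LPS, or if they were chosen by name (Tnf and Nos2, for example). Names outside this rule are marked where they occur, and a few genes are not reported here. Alternatives were an added 0.1, a minimum of 5 CPM or none, quantile and median-ratio scaling, no variance trend, the compared groups alone, limma's treat test against 1.5-fold, a replicate block and each library left out.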

Additional observations from a re-analysis of the deposited data

Results flagged for a closer look

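The effect of adding LPS differed between cells with and without microparticles, by the test of the difference itself (the interaction in limma), in 120 genes with a positive and 432 with a negative interaction. The 10 genes with the smallest adjusted p among those also called against control are given here with the means of the 4 groups.

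In 8 of the 10, both single agents raised the gene and the joint treatment stayed below the sum of the log2 changes. Clec4n (dectin-2) had the most negative interaction, -3.76 ± 0.15, with 82.2 CPM in LPS+MP, 224 CPM in LPS, 63.0 CPM in MP and 11.7 CPM in control. Cth, the cysteine-forming enzyme gene, was at -2.95 ± 0.10, with 204 CPM in LPS+MP, 149.6 CPM in LPS, 196 CPM in MP and 17.7 CPM in control. Microparticles alone thus gave a level near the joint one, and LPS alone a somewhat lower one. Cp (ceruloplasmin) was at -2.72 ± 0.17, with 112 CPM in LPS+MP, 209 CPM in LPS, 4.27 CPM in MP and 0.490 CPM in control.

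Ptger2, a prostaglandin E2 receptor gene, was at -2.43 ± 0.15, with 51.5 CPM in LPS+MP, 45.7 CPM in LPS, 32.4 CPM in MP and 4.54 CPM in control. Gadd45a, a growth arrest gene, was at -2.22 ± 0.13, with 67.3 CPM in LPS+MP, 71.1 CPM in LPS, 112 CPM in MP and 24.5 CPM in control. Cd86 was at -2.02 ± 0.13, with 375 CPM in LPS+MP, 373 CPM in LPS, 172 CPM in MP and 41.0 CPM in control. In Cd86 the joint treatment and LPS alone gave overlapping libraries.

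Slc7a11 was at -1.95 ± 0.13, with 313 CPM in LPS+MP, 226 CPM in LPS, 48.0 CPM in MP and 8.20 CPM in control. The complement gene C3 was at -1.81 ± 0.13, with 1673 CPM in LPS+MP, 1824 CPM in LPS, 311 CPM in MP and 95.8 CPM in control. The other two were lowered genes. Top2a was at -1.84 ± 0.11, with 17.7 CPM in LPS+MP, 97.7 CPM in LPS, 407 CPM in MP and 599.5 CPM in control. Cx3cr1 was at 2.21 ± 0.16, with 0.964 CPM in LPS+MP, 0.985 CPM in LPS, 15.1 CPM in MP and 74.2 CPM in control, LPS alone having brought it to about 1 CPM.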

How the results depend on the processing

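Against control, the other settings gave 884 to 1171 higher and 1220 to 1674 lower genes (1001 and 1447 as reported), and leaving out each library gave 977 to 1006 and 1413 to 1457. The share of called genes that were higher was 40.9% as reported, 48.3% after quantile normalization and 46.8% after median-ratio scaling. Against LPS, the genes higher in LPS+MP numbered 123 with an added 0.1 and 129 after quantile normalization (74 as reported), and 71 to 108 with a library left out. The positive interactions numbered 193 after quantile normalization and 53 by the treat test against 1.5-fold (120 as reported), the negative ones 222 by the treat test (432 as reported), and 98 to 149 and 421 to 466 with a library left out. The genes apart from all other groups numbered 37 to 58 higher and 226 to 424 lower under the other settings. The interaction of Il10, -1.27 as reported, reversed to 0.089 with an added 0.1 (limma adjusted p = 0.929 for the latter), and the cause was not tested. Of the genes named by the rule, Gypc, Mdh1, Sdhd and Arg1 lost their call against control under 1 or more settings in which they were tested. Genes named after their values were seen were not followed through the settings one by one.

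The replicate number as a block left 1001 and 1447 genes called against control and gave 119 positive and 433 negative interactions. Same-numbered LPS+MP and control libraries had residual correlations of 0.0700 to 0.104, and over all 18 same-numbered pairs the median was 0.018 (-0.247 to 0.158), so the numbers were not taken to pair the samples, although all 6 LPS+MP and control libraries correlated most with the one of the same number. Depth is unknown, and genes near 0 CPM have fold changes that rest on the added 1.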

Other observations

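Some genes were called in opposite directions by the single agents against control, and are given here with all 4 groups. Nos2 averaged 105 CPM in LPS+MP, 489 CPM in LPS, 0.588 CPM in MP and 6.48 CPM in control. Niacr1, the niacin receptor gene, averaged 76.2 ± 11.4 CPM in LPS+MP, 65.2 ± 7.07 CPM in LPS, 2.44 ± 0.704 CPM in MP and 10.4 ± 1.44 CPM in control. In both, microparticles alone lowered the gene while the joint treatment raised it against control.

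Tmem132a averaged 236 ± 15.9 CPM in LPS+MP, 253 ± 56.3 CPM in LPS, 44.5 ± 6.96 CPM in MP and 109 ± 7.48 CPM in control. Fam49a averaged 63.0 ± 8.02 CPM in LPS+MP, 123 ± 20.3 CPM in LPS, 11.4 ± 1.41 CPM in MP and 24.955 ± 2.13 CPM in control. Gbp9, of a family with near-identical copies, averaged 37.9 ± 3.12 CPM in LPS+MP, 61.4 ± 11.52 CPM in LPS, 2.55 ± 1.01 CPM in MP and 6.06 ± 0.327 CPM in control. Clec12a, an inhibitory lectin receptor gene, was not called against control, at 21.6 ± 1.05 CPM in LPS+MP, 82.6 ± 17.4 CPM in LPS, 15.9 ± 4.23 CPM in MP and 35.5 ± 1.70 CPM in control.

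The opposite order held for Klf4, a transcription factor gene of macrophage polarisation. It had 23.5, 21.7 and 19.6 CPM in LPS+MP, 9.64, 4.61 and 9.03 CPM in LPS, 55.4, 52.5 and 45.8 CPM in MP and 17.8, 20.3 and 19.3 CPM in control. It was the 1 named gene whose LPS+MP and control libraries overlapped (0.16 ± 0.18, limma adjusted p = 0.446), with each single agent called in its own direction. Epha2 averaged 5.09 ± 0.379 CPM in LPS+MP, 3.23 ± 2.03 CPM in LPS, 24.2 ± 5.31 CPM in MP and 9.83 ± 1.16 CPM in control, and was not called against control (-0.83 ± 0.26). Pi16 averaged 0.130 ± 0.129 CPM in LPS+MP, 0.583 ± 0.536 CPM in LPS, 15.8 ± 2.03 CPM in MP and 5.59 ± 1.25 CPM in control (-2.53 ± 0.23).

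Among the marker genes of other cell types, Cd28, the costimulatory receptor gene of T cells, averaged 7.16 ± 1.20 CPM in LPS+MP and 64.0 ± 0.873 CPM in control (-3.004 ± 0.15). Pdgfra, a growth factor receptor gene of fibroblasts, averaged 7.58 ± 0.591 CPM in LPS+MP and 1.33 ± 0.320 CPM in control (1.89 ± 0.15). Lck, a T cell kinase gene, averaged 10.1 ± 0.619 CPM in LPS+MP and 3.85 ± 0.263 CPM in control (1.19 ± 0.12).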
